A study of Mus musculus with 12 samples.

Results

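The genes described here were the integrins and cadherins of immortalized mouse embryonic fibroblasts, that is, the surface receptors by which a fibroblast holds the matrix and its neighbours. They were taken from the expression table by symbol alone, as the protein-coding genes named Itga or Itgb followed by a subunit number or letter and those named Cdh followed by a number, with Cdh1 and Cdh16 set aside. The rule gave 47 of the 34866 genes of the table, of which 21850 were protein-coding. They comprised 18 integrin alpha subunits, 8 integrin beta subunits and 21 cadherins. Mouse embryonic fibroblasts (MEFs) came from 13-day embryos that were wild-type (WT) or knockout (KO) for Sirt3, the main protein deacetylase of the mitochondrial matrix. The paper names the WT stock as 129S1/SvImJ and gives the KO mice by a separate stock number, without a strain name. Male and female cells were kept apart and all had been immortalized with SV40, so every group also carried the viral antigen. There were 4 groups, WT and KO of each sex, of 3 cultures each, harvested at passage 6. The paper describes cells seeded in triplicate wells. How many independent lines stood behind the 3 cultures of a group is not given in the sources used here. The p-values thus measure the spread between cultures, which may be technical. A difference between genotypes or sexes cannot be told apart from one between lines, and one between genotypes cannot be told apart from one between stocks.

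Integrins are heterodimers of an alpha and a beta subunit. The alpha subunit largely sets the ligand, such as fibronectin, laminin or collagen, and the beta tail recruits talin, kindlin and the adaptors that tie the adhesion to actin. Cadherins are calcium-dependent receptors that bind the same or a related cadherin on the next cell and hold the actin cortex through catenins. Fibroblasts are known for the fibronectin receptor alpha5beta1, for alphav integrins and for N-cadherin and cadherin-11, whereas E-cadherin marks epithelia.

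Expression was measured by polyA RNA-seq and deposited as TPM, each gene's share of the library's transcripts after correction for transcript length, so levels of different genes could be compared. The number of reads behind a TPM value is unknown. Sirt3 mRNA in males averaged 7.61 ± 1.30 TPM (SD, n = 3) in WT and 10.3 ± 1.19 in KO, and in females 7.90 ± 0.695 in WT and 8.27 ± 0.749 in KO. It was thus not lower in either group labelled KO (limma adjusted p = 0.0981 and 0.772), and "KO" below means the libraries labelled so. Gene-level TPM cannot show whether the KO allele still gives a transcript, nor the level of the protein. The paper includes an immunoblot of Sirt3 protein, which was not read here. Of 10 fibroblast markers, 9 averaged at least 1 TPM, and their summed level ran from 6776 to 11682 TPM over the 12 libraries. The sums were 9083 to 10023 TPM in male WT and 11185 to 11682 in male KO. Female sums were 6776 to 6898 TPM in WT and 8969 to 9179 in KO. By the means, 8 of the 10 were higher and 2 lower in male KO, and all 10 were higher in female KO. Leukocyte markers summed to 7.99 to 15.4 TPM, with Adgre1 and Tyrobp at 0 in every library, endothelial markers to 29.1 to 49.5, skeletal muscle markers to 5.12 to 15.7 and neural markers to 19.01 to 43.7. Neural sums were 42.2 to 43.7 TPM in female WT and 23.4 to 24.9 in female KO, with 5 of 9 markers lower and 3 higher. They overlapped between male WT and KO. Endothelial sums were 31.9 to 34.1 TPM in male WT and 40.2 to 43.0 in male KO, with 3 of 10 markers higher and 7 lower, and overlapped in females. In bulk RNA, fewer cells of a type and less RNA per cell cannot be told apart.

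Of the 47 genes, 25 averaged 1 TPM or more across all 12 libraries and were tested: 11 alpha subunits, 5 beta subunits and 9 cadherins. Itgb1, which encodes the beta1 chain shared by most matrix receptors, was by far the most abundant, with means of 677 to 893 TPM per group. Itga5 (185 to 276 TPM), the alpha chain of the fibronectin receptor, and Itgav (130.3 to 157 TPM), the alpha chain of the vitronectin receptors, came next, followed by Itgb5 (117 to 158 TPM), a beta partner of alphav. Among cadherins, Cdh11 (50.8 to 185 TPM) and Cdh2 (52.5 to 73.1 TPM) led, and Cdh13 and Cdh24 were between 12.6 and 26.4 TPM in every group mean. The nearest genes to the limit were Itgb4 at a mean of 1.23 TPM, just inside, and Itga10 at 0.929, just outside.

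The 22 genes under the limit were 7 alpha subunits, 3 beta subunits and 12 cadherins. Cdh9 was at 0 TPM in all 12 libraries, and Cdh5, the endothelial cadherin, averaged 0.0290 TPM. The leukocyte integrin chains were low as well, with means of 0.538 TPM for Itgb2, 0.353 for Itgae, 0.0434 for Itgax, 0.0329 for Itgal and 0.0282 for Itgam. Itgb8 averaged 0.674 TPM, Itga4 0.412 and Cdh17 0.335, and the other genes under the limit that are not named here averaged under 0.1 TPM. Itgad averaged 0.727 TPM but was at 0 in 5 libraries. Cdh15, the cadherin of muscle precursors, stood at 0.139, 0.184 and 0.0331 TPM in male WT and 0.887, 0.834 and 0.527 in male KO. It stood at 0.0919, 0.102 and 0.175 TPM in female WT and 0.952, 0.578 and 0.687 in female KO, so that WT and KO did not overlap in either sex, at levels below 1 TPM.

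**Figure D1:**
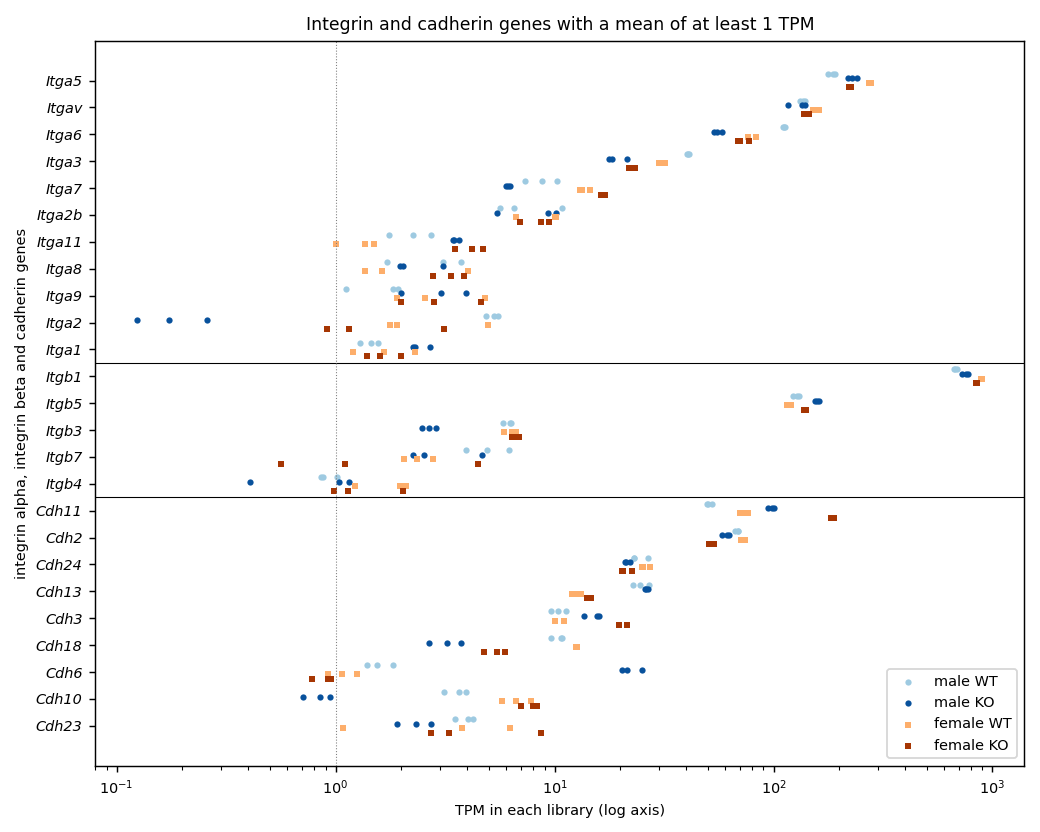
TPM of the 25 tested integrin and cadherin genes in each of the 12 libraries (1 point each, coloured by group) on a log axis, with a dotted line at 1 TPM. Itgb1 lies above all other genes, Cdh6 stands apart in male KO at 20.2 to 25.2 TPM, and Itga2 in male KO lies at 0.125 to 0.258 TPM.

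Which of these receptors differ between KO and WT cells, and whether male and female cells differ in the same way, was asked with limma on log2(TPM + 1), and every log2 fold change below is on that scale, which understates changes of low genes. Male KO and WT differed in 14 of the 25 tested genes (56.0%), 6 higher and 8 lower in KO, where 21.6% of all 12504 tested genes were called (10.7% higher and 10.9% lower, adjusted p under 0.05, Benjamini-Hochberg). Female KO and WT differed in 9 genes (36.0%), 4 higher and 5 lower, where 11.5% of all tested genes were called (5.63% higher and 5.84% lower). All KO values lay on one side of all WT values for 19 of the 25 genes in males (40.0% of all tested genes) and 13 in females (33.6%). Integrins supplied 3 of the higher and 4 of the lower calls in males and 2 of each in females, and the other calls were cadherins. The genotype effect itself differed between the sexes for 11 of the 25 (44.0%), 7 integrins and 4 cadherins, against 13.0% of all tested genes, and the male minus female difference was positive for 4 (6.7%) and negative for 7 (6.33%). The median log2 fold change of the 25 genes was −0.065 in males and −0.075 in females, beside −0.015 and −0.022 for all tested genes. The male and female comparisons share no library. In both sexes 7 of the 25 genes were called (5.84% of all tested genes), 6 of them in the same direction (4.74%) and Itga5 in opposite directions (1.1%).

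**Figure D2:**
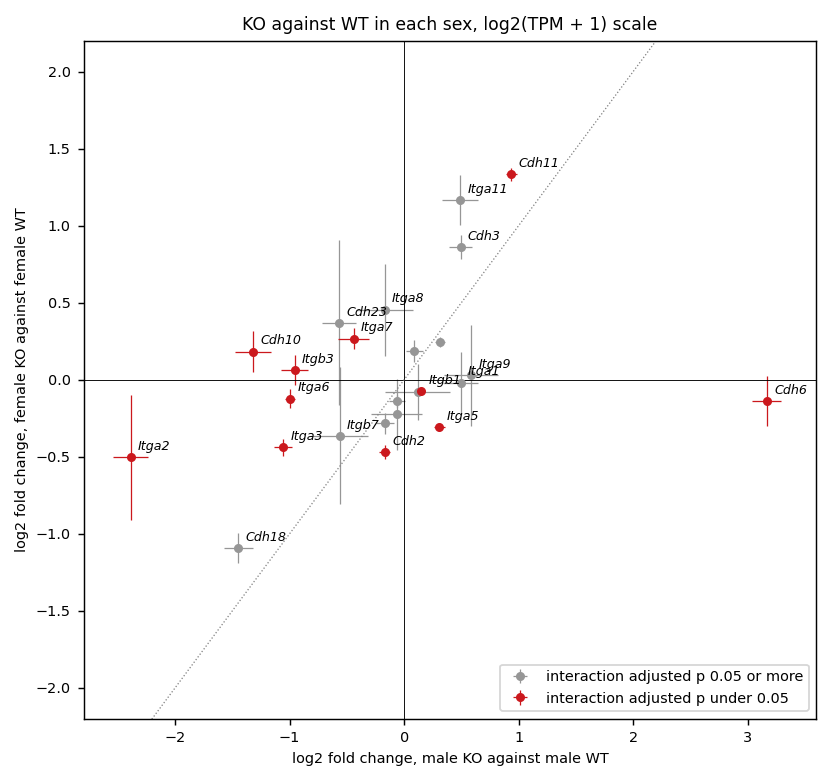
Log2 fold change of KO over WT in males (x axis) against females (y axis) for the 25 tested genes, on the log2(TPM + 1) scale, with bars of 1 SE, a dotted line where both are equal, and in red the genes whose effect differed between the sexes. Cdh11 lies high in both sexes at 0.93 and 1.33, whereas Cdh6 at 3.17 and Itga2 at −2.39 in males lie at −0.14 and −0.50 in females.

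Among beta subunits, Itgb1 (GRCm38 chr8:128685654-128733200) stood at 673, 668 and 690.3 TPM in male WT and at 725, 776 and 755 in male KO. In females it stood at 897, 892 and 890.4 TPM in WT and at 852, 847 and 845 in KO. It was thus slightly higher in every male KO library and lower in every female KO library than in any WT library of that sex. The male log2 fold change was 0.15 (SE 0.03, limma adjusted p = 0.0217) and the female one −0.07 (adjusted p = 0.0591), and the male effect exceeded the female one by 0.23 (SE 0.04, adjusted p = 0.00201). The male call was lost without 1 of KO replicates 2 and 3 or WT replicates 1 and 2, with adjusted p of 0.0550 to 0.0723. Itgb5, which pairs with alphav alone, rose in both sexes. Its mean went from 127 ± 4.49 to 158 ± 3.71 TPM in males (1.24-fold, adjusted p = 0.00263) and from 117 ± 2.14 to 139 ± 1.51 in females (1.19-fold, adjusted p = 0.00483, n = 3, limma).

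Itgb3 (chr11:104608000-104670476), the beta partner of alphav in fibroblasts and of alphaIIb in platelets, was at 5.84, 6.28 and 6.31 TPM in male WT and at 2.68, 2.88 and 2.49 in male KO. The female libraries held 6.38, 6.63 and 5.86 TPM in WT and 6.41, 6.91 and 6.53 in KO. The 3 male KO libraries were thus below the other 9, which overlapped one another. Itgb3 was 2.29-fold lower in male KO than in male WT (log2 fold change −0.96, SE 0.12, limma adjusted p = 0.00167), and the female change was 0.06 (SE 0.10, adjusted p = 0.725). The difference between the 2 effects was −1.02 (SE 0.13, adjusted p = 3.28e-04). Itgb4, the beta chain of hemidesmosomes, and Itgb7, a leukocyte beta chain, differed in neither sex by the test. Their group means ran from 0.866 to 1.77 TPM and from 2.05 to 5.01 TPM, and Itgb7 passed in males, lower in KO, without KO replicate 1 (limma adjusted p = 0.0447).

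The alpha chains that bind RGD-containing ligands such as fibronectin and vitronectin were the most abundant class. Itga5 (chr15:103344286-103366763) stood at 177, 192 and 188 TPM in male WT and at 219.6, 228 and 241 in male KO, and at 277, 277 and 273 TPM in female WT and 226, 220.0 and 221 in female KO. The groups of each sex did not overlap, and the order of WT and KO was opposite in the 2 sexes. Itga5 rose 1.24-fold in male KO (log2 fold change 0.31, SE 0.05, limma adjusted p = 0.00570) and fell 1.24-fold in female KO (−0.31, SE 0.03, adjusted p = 9.39e-04), and the effects differed by 0.62 (SE 0.06, adjusted p = 2.32e-05). Itga5 was 0.57 lower on the log2 scale in male than in female WT (adjusted p = 1.93e-04), while male and female KO differed by 0.05 (adjusted p = 0.520). Itgav differed between KO and WT in neither sex by the test, with log2 fold changes of −0.06 and −0.14 (adjusted p = 0.555 and 0.0684). Itga8 and Itga2b, at group means of 2.35 to 3.34 and 7.66 to 8.94 TPM, passed no test.

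The laminin-binding alpha chains gave lower values in male KO. Itga6 (chr2:71745616-71858416), whose product binds laminin with beta1 or beta4, stood at 112, 113 and 110.1 TPM in male WT and at 53.3, 55.3 and 57.9 in male KO. Female WT held 76.7, 76.3 and 83.0 TPM and female KO 70.0, 77.6 and 69.0. Male WT libraries were the highest and male KO libraries the lowest of the 12, and the female groups overlapped between them. Itga6 fell 2.01-fold in males (log2 fold change −0.997, SE 0.05, limma adjusted p = 2.32e-05), the female change was −0.12 (SE 0.06, adjusted p = 0.244), and the effects differed by −0.87 (SE 0.08, adjusted p = 1.70e-05).

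Itga3 (chr11:95044474-95076801), the alpha chain of the laminin receptor alpha3beta1, was at 40.6, 41.1 and 40.2 TPM in male WT and 17.7, 18.3 and 21.3 in male KO. In females it was at 31.9, 30.1 and 30.2 TPM in WT and 22.0, 23.4 and 21.8 in KO. KO lay below WT without overlap in both sexes. It fell 2.13-fold in males (log2 fold change −1.06, SE 0.08, limma adjusted p = 1.87e-04) and 1.37-fold in females (−0.44, SE 0.06, adjusted p = 0.00529), and the male effect was larger by 0.62 in size (interaction −0.62, SE 0.10, adjusted p = 0.00120). Itga7, a laminin receptor chain best known from muscle, averaged 8.79 ± 1.48 TPM in male WT, 6.15 ± 0.132 in male KO, 13.7 ± 0.729 in female WT and 16.6 ± 0.381 in female KO. Neither genotype comparison passed the test (adjusted p = 0.0540 and 0.0589), though both did after median-of-ratios scaling (0.0472 and 0.0441) and the male one without WT replicate 1 (0.0321), and the effects differed by −0.71 (SE 0.14, adjusted p = 0.00685). Itga3, Itga6 and Itga7 together made up, of all integrin alpha TPM, 31.9% ± 0.513 in WT and 17.5% ± 0.529 in KO males, and 21.3% ± 0.880 in WT and 22.2% ± 1.21 in KO females, where the male groups did not overlap and the female groups did.

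Some markers of epithelial and mesothelial cells were also lower in KO of both sexes. The summed TPM of 10 epithelial markers was 79.4 to 80.9 in male WT, 11.1 to 12.2 in male KO, 22.8 to 27.6 in female WT and 8.13 to 12.7 in female KO. By the means, 7 of the 10 were lower in male KO, Krt19 (67.2 and 7.47 TPM) and Krt18 (7.47 and 0.363 TPM) by the most, 1, Cldn7, was higher, and all 10 were lower in female KO. For 6 mesothelial markers the sums were 29.9 to 34.9, 5.12 to 7.63, 15.5 to 18.5 and 5.58 to 6.80 TPM in the same order. In males Msln averaged 28.7 TPM in WT and 1.30 in KO, whereas Wt1 averaged 1.46 in WT and 4.83 in KO. No marker of the 2 lists was at 0 in all 12 libraries. The part of such cells in the integrin and cadherin values was not tested.

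The collagen-binding alpha chains were rare and moved in different ways. Itga2 (chr13:114833081-114932100), the alpha chain of the collagen receptor alpha2beta1 of epithelia and platelets, was at 5.27, 4.85 and 5.51 TPM in male WT and at 0.125, 0.173 and 0.258 in male KO. Female WT held 1.91, 4.99 and 1.76 TPM and female KO 0.910, 1.15 and 3.12. Male KO lay below all other groups, while female WT and KO overlapped and each held 1 library well above its other 2. Itga2 was 28.1-fold lower in male KO than in male WT by the means (log2 fold change −2.39, SE 0.15, limma adjusted p = 7.99e-05). The female change was −0.50 (SE 0.40, adjusted p = 0.476), and the effects differed by −1.89 (SE 0.46, adjusted p = 0.0185).

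Itga11 (chr9:62677826-62783982), the alpha chain of the fibroblast receptor for fibrillar collagen, moved the other way. It was at 1.76, 2.74 and 2.25 TPM in male WT and 3.45, 3.47 and 3.68 in male KO. In females it was at 1.36, 0.9995 and 1.505 TPM in WT and 3.51, 4.18 and 4.72 in KO. Every KO library was above every WT library. The female rise of 3.21-fold passed the test (log2 fold change 1.17, SE 0.16, limma adjusted p = 0.00697), the male change of 0.49 did not (SE 0.16, adjusted p = 0.0688), and the 2 effects were not shown to differ (−0.67, adjusted p = 0.0714). The male rise passed when all 12 libraries shared 1 estimate of the spread (adjusted p = 0.0377), and the interaction passed without male WT replicate 1 (0.0448). Itga11 was below Itga2 in male and female WT, at a TPM ratio of 0.436 ± 0.118 and 0.589 ± 0.344, and above it in KO, at 20.7 ± 6.72 and 3.00 ± 1.30, with no overlap between KO and WT in either sex. Itga1, a collagen and laminin receptor chain, went from 1.44 ± 0.137 to 2.43 ± 0.241 TPM in males (adjusted p = 0.0583). Its span holds Pelo, a gene on the same strand at 31.4 TPM, and a readthrough transcript, so its low values are uncertain. Itga9, which binds tenascin and osteopontin, passed no test at group means of 1.62 to 3.15 TPM.

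**Figure D3:**
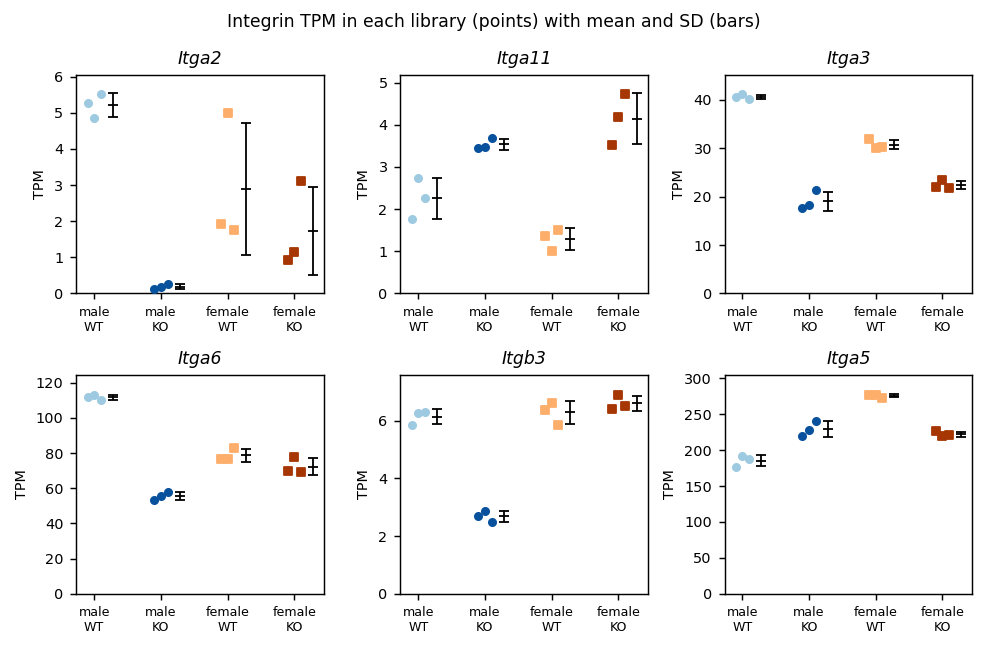
TPM of 6 integrin genes in each culture (points) with the group mean and SD (bars) for the 4 groups, with axes from 0. Itga6 falls from 112 to 55.5 TPM on average in males, Itga2 is near 0 in male KO, and Itga11 is higher in KO of both sexes.

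Among the cadherins, Cdh11 (chr8:102632095-102785642), a type II cadherin of mesenchymal cells, carried the clearest shift in both sexes. It was at 50.1, 49.7 and 52.5 TPM in male WT and 98.2, 101 and 94.8 in male KO. Female WT held 76.9, 70.1 and 72.4 TPM and female KO 185, 183 and 188. KO libraries lay above WT libraries in both sexes, and female above male in both genotypes. Cdh11 rose 1.93-fold in males (log2 fold change 0.93, SE 0.05, limma adjusted p = 3.07e-05) and 2.54-fold in females (1.33, SE 0.04, adjusted p = 2.56e-05), and the female rise was the larger (interaction −0.40, SE 0.06, adjusted p = 0.00104).

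Cdh2, N-cadherin, the type I cadherin of fibroblasts, neurons and heart, was at 69.0, 68.7 and 67.0 TPM in male WT and 57.9, 61.5 and 62.5 in male KO. It was at 73.9, 71.1 and 74.3 TPM in female WT and 53.4, 50.6 and 53.7 in female KO. KO was below WT without overlap in both sexes, with a wider gap in females. The female fall was −0.47 on the log2 scale (SE 0.04, limma adjusted p = 0.00125) and the male one −0.17 (SE 0.05, adjusted p = 0.0488), with a difference of 0.30 (SE 0.06, adjusted p = 0.00665). The male call was lost whichever single male library was left out (adjusted p from 0.0743 without KO replicate 2 to 0.124 without WT replicate 1).

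With Cdh11 up and Cdh2 down, the TPM ratio of Cdh11 to Cdh2 went from 0.744 ± 0.0341 to 1.62 ± 0.0913 in males and from 0.9996 ± 0.0350 to 3.53 ± 0.0748 in females. Of all cadherin TPM, Cdh11 held 25.5% in WT and 39.0% in KO males, and 33.2% and 59.0% in WT and KO females. Cdh2 held 34.3% and 24.1% in males and 33.2% and 16.7% in females. The summed cadherin level was 199 ± 1.88 and 251 ± 6.93 TPM in male WT and KO, and 220.1 ± 2.81 and 314 ± 4.63 in female WT and KO.

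**Figure D4:**
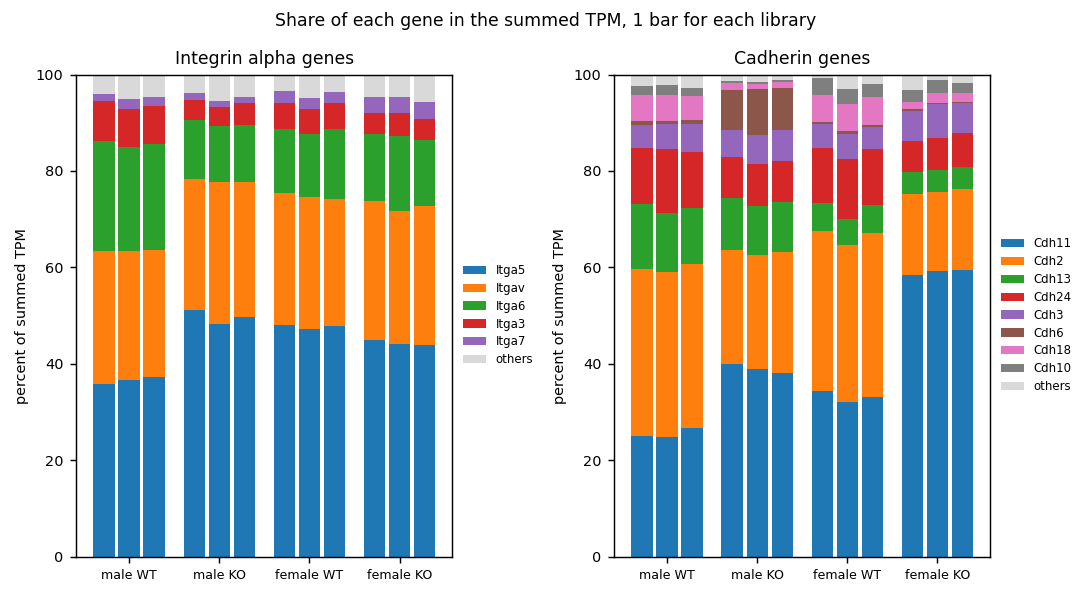
Share of summed TPM by gene within the integrin alpha subunits and within the cadherins, in percent, with 1 stacked bar for each of the 12 libraries. Cdh11 takes on average 25.5% of cadherin TPM in male WT and 59.0% in female KO, and the laminin-binding alpha share is 31.9% in male WT and 17.5% in male KO.

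Cdh3 (chr8:106510891-106557297), P-cadherin, the other type I cadherin above the limit, rose in both sexes. Its TPM values were 9.61, 10.4 and 11.3 in male WT, 13.7, 15.6 and 16.01 in male KO, 11.01, 11.02 and 10.1 in female WT and 19.6, 21.5 and 19.7 in female KO. KO and WT did not overlap in either sex. The rise was 1.45-fold in males (log2 fold change 0.49, SE 0.10, limma adjusted p = 0.0133) and 1.89-fold in females (0.86, SE 0.08, adjusted p = 0.00106), and the effects were not shown to differ (−0.37, adjusted p = 0.0682). The male call was lost without KO replicate 3 (adjusted p = 0.0545).

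Among the other type II cadherins, Cdh6, Cdh10 and Cdh18 lie in the same region of chromosome 15, with Cdh9 and Cdh12 between them. In GRCm38, Cdh6 spans chr15:13028701-13173675 on the minus strand, Cdh10 spans chr15:18818947-19014236 and Cdh18 spans chr15:22549022-23474418, both on the plus strand. With Cdh9 and Cdh12 they form a run of 5 cadherins over 10.446 Mb with gaps of 0.959 to 3.555 Mb that hold 0 other protein-coding genes of the table. Cdh9 and Cdh12, and Acot10, which lies inside Cdh12 on the opposite strand, were at or near 0 TPM. Promoters are shown from RefSeq (GRCm38.p6), each from 250 bases before to 50 bases after the start. They belong to the 3 expressed genes of the run, which moved in different directions in male KO, and to Itga2, with the largest integrin fall. The windows lie at chr15:13173626-13173925 (minus strand, Cdh6), chr15:18820079-18820378 (plus, Cdh10), chr15:23036213-23036512 (plus, Cdh18) and chr13:114932051-114932350 (minus, Itga2). The Cdh10 and Cdh18 windows lie inside the gene spans given above, so they read an internal start, and other starts of these genes were not read. Capitals mark matches to the E-box CANNTG, which reads the same on both strands.
Cdh6: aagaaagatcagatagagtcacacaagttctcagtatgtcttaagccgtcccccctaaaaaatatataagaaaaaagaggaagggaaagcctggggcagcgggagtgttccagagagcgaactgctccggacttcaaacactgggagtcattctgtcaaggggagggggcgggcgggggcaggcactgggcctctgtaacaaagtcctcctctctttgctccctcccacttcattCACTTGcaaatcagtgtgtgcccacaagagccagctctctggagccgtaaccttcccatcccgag
Cdh10: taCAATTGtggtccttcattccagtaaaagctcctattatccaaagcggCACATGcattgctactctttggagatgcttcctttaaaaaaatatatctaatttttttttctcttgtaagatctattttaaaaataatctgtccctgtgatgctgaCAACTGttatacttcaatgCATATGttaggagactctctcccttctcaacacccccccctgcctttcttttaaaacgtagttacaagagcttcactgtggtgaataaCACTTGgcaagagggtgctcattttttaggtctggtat
Cdh18: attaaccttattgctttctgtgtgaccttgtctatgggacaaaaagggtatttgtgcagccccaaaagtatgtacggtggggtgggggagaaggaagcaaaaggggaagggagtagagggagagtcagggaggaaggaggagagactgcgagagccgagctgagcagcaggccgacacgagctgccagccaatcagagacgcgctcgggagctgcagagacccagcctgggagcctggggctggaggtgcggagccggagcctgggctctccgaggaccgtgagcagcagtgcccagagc
Itga2: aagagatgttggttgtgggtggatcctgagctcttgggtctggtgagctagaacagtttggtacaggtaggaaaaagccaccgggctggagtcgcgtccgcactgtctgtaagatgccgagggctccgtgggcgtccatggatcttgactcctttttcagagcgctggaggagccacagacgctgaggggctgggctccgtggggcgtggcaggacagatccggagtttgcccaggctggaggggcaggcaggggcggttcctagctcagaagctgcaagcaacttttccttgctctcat
The Cdh10 window held 5 matches, Cdh6 1, and Cdh18 and Itga2 none, where 72.31% of 32851 promoters of this length held at least 1. The narrower CACCTG, read on both strands and contained in CANNTG, was in none of the 4 windows and in 20.21% of all promoters. Of the 17 tested integrins and cadherins with a promoter in the table, 13 held CANNTG (76.47%) and 4 held CACCTG (23.53%). GC content was 53.0% for Cdh6, 37.67% for Cdh10, 60.33% for Cdh18 and 59.33% for Itga2, with a median of 52.67% over all promoters.

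Cdh6, K-cadherin of the developing kidney and neural crest, was at 1.55, 1.39 and 1.83 TPM in male WT and 20.2, 25.2 and 21.5 in male KO. Female WT held 0.925, 1.25 and 1.07 TPM and female KO 0.928, 0.956 and 0.778. The 3 male KO libraries stood far above the other 9. Cdh6 rose 14.0-fold in male KO (log2 fold change 3.17, SE 0.13, limma adjusted p = 1.36e-05), the female change was −0.14 (SE 0.16, adjusted p = 0.640), and the effects differed by 3.31 (SE 0.19, adjusted p = 6.78e-07). Its share of cadherin TPM was 0.799% in male WT and 8.86% in male KO.

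Cdh10, of the same run and best known from the brain, was at 3.67, 3.95 and 3.12 TPM in male WT and 0.851, 0.940 and 0.710 in male KO. In females it was at 7.83, 6.67 and 5.73 TPM in WT and 7.93, 8.31 and 7.001 in KO. Male KO was the lowest group, and the female groups overlapped above both male groups. Cdh10 fell 4.29-fold in males (log2 fold change −1.32, SE 0.16, limma adjusted p = 0.00148), the female change was 0.18 (SE 0.13, adjusted p = 0.422), and the effects differed by −1.50 (SE 0.19, adjusted p = 2.64e-04). Between KO groups, Cdh6 was 25.1-fold higher and Cdh10 9.29-fold lower in males than in females (limma adjusted p = 6.72e-06 and 7.64e-05).

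Cdh18, the last gene of the run, fell in both sexes. It was at 10.8, 10.9 and 9.65 TPM in male WT and 3.72, 2.68 and 3.22 in male KO, and at 12.7, 12.6 and 12.6 in female WT and 4.79, 5.96 and 5.46 in female KO. KO lay below WT without overlap in both. The fall was 3.25-fold in males (log2 fold change −1.45, SE 0.13, limma adjusted p = 4.11e-04) and 2.33-fold in females (−1.09, SE 0.10, adjusted p = 0.00118), and the effects were not shown to differ (−0.36, adjusted p = 0.182).

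**Figure D5:**
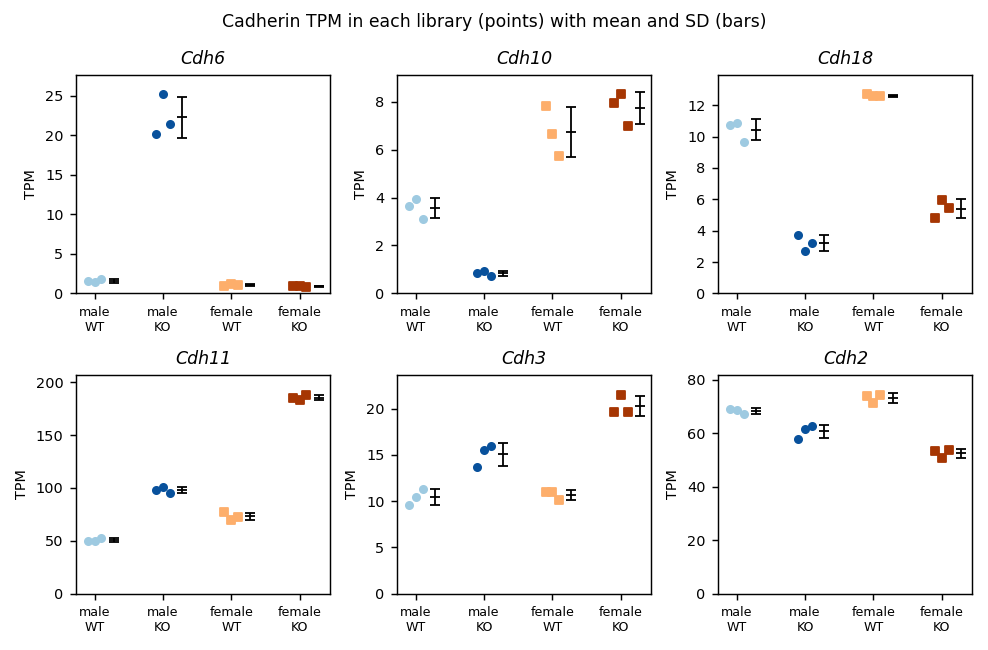
TPM of 6 cadherin genes in each culture (points) with the group mean and SD (bars) for the 4 groups, with axes from 0. Cdh11 and Cdh3 are higher and Cdh18 lower in KO of both sexes, whereas Cdh6 averages 22.3 TPM in male KO and 0.887 to 1.59 TPM in the other groups.

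Cdh24, a type II cadherin, averaged 25.9 ± 1.20 TPM in female WT and 21.1 ± 1.20 in female KO (log2 fold change −0.28, SE 0.07, limma adjusted p = 0.0434), and this call was lost whichever female library was left out (adjusted p from 0.0536 without KO replicate 3 to 0.121 without WT replicate 2). A transcript on the opposite strand, Gm17606 at 6.999 TPM, overlaps it. Cdh23 (chr10:60302748-60696490), the tip-link cadherin of hair cells, was at 4.03, 3.52 and 4.24 TPM in male WT and 2.34, 2.73 and 1.92 in male KO. Its female values were scattered, at 1.08, 6.24 and 3.78 TPM in WT and 8.66, 2.73 and 3.30 in KO. The male fall of 0.57 on the log2 scale (SE 0.15, limma adjusted p = 0.0366) was lost when the 12 libraries shared 1 estimate of the spread (adjusted p = 0.363) and without any of 5 of the male libraries, KO replicates 1 and 3 and each WT replicate (adjusted p of 0.0589 to 0.113). Cdh13, T-cadherin, which is anchored by a lipid tail and has no cytoplasmic domain, differed between KO and WT in neither sex by the test, with log2 fold changes of 0.09 and 0.18 (adjusted p = 0.447 and 0.160).

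Male and female libraries were also compared within a genotype, with the same libraries as above. Among WT cells, 10 of the 25 genes differed (40.0%), 4 higher and 6 lower in males, against 12.8% of all tested genes (6.26% higher and 6.56% lower). Among KO cells 12 differed (48.0%), 4 higher and 8 lower, against 16.6% (8.17% and 8.39%). Cdh13 was higher in males in both genotypes, at 24.8 ± 2.05 TPM in male and 12.6 ± 0.587 in female WT (1.96-fold, limma adjusted p = 7.45e-04) and 26.4 ± 0.361 and 14.5 ± 0.385 in KO (1.82-fold, adjusted p = 2.03e-04). Itga6 was higher in male than female WT by 0.50 on the log2 scale (adjusted p = 7.49e-04) and lower in male than female KO by 0.37 (log2 fold change −0.37, adjusted p = 0.00756). Itga7 was lower in males in both genotypes, by −0.59 in WT (adjusted p = 0.0239) and −1.30 in KO (2.71-fold, adjusted p = 8.09e-05). Of these calls, 6 of the 10 in WT and 8 of the 12 in KO held whichever library was left out, and Cdh10, Itga7, Itgav and Itgb7 in WT and Cdh18, Cdh2, Cdh3 and Itgb5 in KO did not.

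Partners of these receptors were read from lists of known pathway genes. Of 35 tested focal adhesion adaptors and kinases, 7 rose and 7 fell in male KO (40.0% called) and 2 rose and 7 fell in female KO (25.7%), beside the 21.6% and 11.5% of all tested genes. Parvb, beta-parvin of the complex that links integrin tails to actin, went from 15.9 to 7.30 TPM in males (limma adjusted p = 0.00397), and Tln2, talin-2, from 11.8 to 21.5 (adjusted p = 2.86e-04). In females Parvb averaged 22.1 TPM in WT and 17.1 in KO (adjusted p = 0.0227, and 0.0526 to 0.0735 without any 1 of the female libraries) and Tln2 14.3 and 17.7 (adjusted p = 0.0521). Of 20 regulators and membrane partners of integrins, 4 rose and 3 fell in males (35.0%) and 3 rose and 1 fell in females (20.0%). Kank1, which binds talin and links adhesions to microtubules, rose in males from 4.88 to 11.1 TPM (limma adjusted p = 0.00391) and averaged 3.34 and 4.14 in females (adjusted p = 0.292). Plaur, the urokinase receptor, fell in both sexes, from 197 to 103 TPM (adjusted p = 1.76e-05) and from 175 to 136 (adjusted p = 0.00670). Dab2, an endocytic adaptor for integrins, rose in females from 18.3 to 27.3 TPM (adjusted p = 0.00287) and averaged 29.5 and 30.0 in males (adjusted p = 0.898).

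On the cadherin side, 1 of 18 catenins and partners rose and 6 fell in male KO (38.9% called), and 0 rose and 2 fell in female KO (11.1%, close to the 11.5% of all tested genes). Jup, plakoglobin, fell in both sexes, from 76.5 to 39.4 TPM in males (limma adjusted p = 4.77e-04) and from 112 to 83.1 in females (adjusted p = 0.00373). Ctnnal1, alpha-catulin, fell from 17.6 to 8.30 TPM in males (adjusted p = 4.56e-04) and averaged 9.04 and 9.74 in females (adjusted p = 0.690). Ctnnb1, beta-catenin, averaged 436 and 413 TPM in males and 423 and 424 in females (limma adjusted p = 0.109 and 0.954). Ctnna1, alpha-catenin, fell slightly, from 201 to 181 TPM in males and from 220 to 196 in females (adjusted p = 0.0255 and 0.0234). Afdn, afadin, which ties nectins to actin, fell in males from 74.2 to 47.2 TPM (adjusted p = 0.0323) and averaged 68.6 and 52.4 in females (adjusted p = 0.108), and the male call was lost without KO replicate 3 or any WT replicate (adjusted p of 0.0584 to 0.1003). Of 22 tested integrin ligands, 8 rose and 7 fell in males (68.2%) and 7 rose and 4 fell in females, 11 of the 22 in all. Postn, periostin, rose from 123 to 555 TPM in males (adjusted p = 1.01e-06) and from 145 to 639 in females (adjusted p = 4.40e-07), with no difference between the effects by the test (0.04, adjusted p = 0.647). Lama4, a laminin alpha chain, rose from 14.0 to 44.1 TPM in males (adjusted p = 6.33e-05) and Spp1, osteopontin, from 149 to 387 (adjusted p = 7.67e-06). In females Spp1 rose from 333 to 427 TPM (adjusted p = 0.00188) and Lama4 from 10.9 to 13.9 (adjusted p = 0.0391), the latter call being lost without any 1 of the female libraries (0.0619 to 0.112), and each effect was larger in males (interaction for Lama4 and Spp1, adjusted p = 2.55e-05 and 5.95e-07). Of 7 transcription factors of the epithelial-mesenchymal transition, 3 rose and 2 fell in males (71.4%) and 4 rose and 0 fell in females (57.1%). Whether they act on the cadherins measured here was not tested. Snai2 went from 16.3 to 27.8 TPM in males (adjusted p = 0.00168) and from 14.5 to 21.8 in females (adjusted p = 0.0136). The female adjusted p was 0.0521 and 0.0517 without KO replicate 1 and 3, and 0.0551 with the replicate number as a block. Twist2, a mesenchymal basic helix-loop-helix factor, rose in females from 88.6 to 158 TPM (adjusted p = 6.62e-05) and averaged 147 and 142 in males (adjusted p = 0.463). Prrx1, a mesenchymal homeobox factor, fell in males from 139 to 92.0 TPM (adjusted p = 8.76e-04) and rose in females from 99.9 to 123 (adjusted p = 0.00236).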

How the data were processed

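RNA-seq of 12 MEF cultures (3 in each of 4 groups) was analysed. Per the submitters' processing notes, reads were quantified with Salmon 1.10.1 against GRCm38. The authors deposited gene-level TPM values, 1 column for each sample, which sum to about 1000000 in each library. The TPM table does not give the depth reached in each library, and reads were not used here, so no test on counts was made. Identifiers were matched to GENCODE M21 (99.39%). The 12504 genes that averaged 1 TPM or more across all libraries were tested on log2(TPM + 1) with limma 3.58.1 (R 4.3.3, empirical Bayes with a trend), Benjamini-Hochberg adjustment and a threshold of 0.05. KO was compared with WT within each sex, males with females within each genotype, each on its 6 libraries, and the interaction was fitted on all 12, giving 5 comparisons. The fit was checked on simulated data.

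Values were given in every library for genes called in a genotype comparison or the interaction, with a log2 fold change of at least 0.5 in size and no overlap of KO and WT in one sex, and also for Itga5, Itgb1, Cdh2 and Cdh15, chosen after their values were seen. Of each pathway list, the up to 3 genes with the largest change among those called without overlap were named, except 1 focal adhesion gene that is not reported here. The members, lists and tests were chosen with earlier results of these data known. Alternatives were a pseudocount of 0.1, no filter, a filter at 5 TPM, median-of-ratios scaling, a replicate block, 1 fit over all 12 libraries, and leaving out each library.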

Additional observations from a re-analysis of the deposited data

Results flagged for a closer look

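Of the integrins, the cadherins and the partner genes named above, those listed here were picked out because the KO effect differed between male and female cells by limma's interaction test (Benjamini-Hochberg adjusted p under 0.05, all 12 libraries, male effect minus female effect on the log2(TPM + 1) scale). Among integrin chains the differences were −1.89 for Itga2, −1.02 for Itgb3, −0.87 for Itga6, −0.71 for Itga7 and −0.62 for Itga3, and 0.62 for Itga5 and 0.23 for Itgb1. Among cadherins they were 3.31 for Cdh6, −1.50 for Cdh10, −0.40 for Cdh11 and 0.30 for Cdh2. For focal adhesion genes they were 0.52 for Tln2 and −0.69 for Parvb. For integrin regulators they were 0.79 for Kank1, −0.57 for Plaur and −0.53 for Dab2, for cadherin partners −1.09 for Ctnnal1 and −0.52 for Jup, for ligands 1.27 for Lama4 and 1.01 for Spp1, and for transcription factors −0.90 for Prrx1 and −0.89 for Twist2. The Kank1 difference lost its call without male KO replicate 1 or 3, male WT replicate 3, female KO replicate 2 or female WT replicate 1 (limma adjusted p of 0.0567 to 0.0625), and the Parvb difference without male KO replicate 3, female KO replicate 2 or female WT replicate 2 or 3 (0.0504 to 0.0562). Over the whole lists, the test passed for 9 of 35 focal adhesion genes, 7 of 20 integrin regulators, 3 of 18 cadherin partners, 14 of 22 ligands and 3 of 7 transcription factors, against 13.0% of all tested genes. Of the genes with values here, Prrx1 and Itga5 were called in opposite directions in the 2 sexes, as were 5 list genes not shown, 2 focal adhesion genes, 1 integrin regulator and 2 ligands. Prrx1, a mesenchymal homeobox factor, averaged 139 ± 2.32 TPM in male WT, 92.0 ± 7.89 in male KO, 99.9 ± 1.33 in female WT and 123 ± 2.16 in female KO.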

How the results depend on the processing

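The direction of every integrin and cadherin call held under each alternative run. With a replicate block, female KO and WT differed in 670 genes in place of 1434. With 1 library left out, the count was 774 to 835 in females, 1813 to 2318 in males (main 2707), 1037 to 1243 between WT sexes (main 1603), 1328 to 1824 between KO sexes (main 2070) and 1353 to 1559 for the interaction (main 1629). Among the 25 tested integrins and cadherins it was then 10 to 13 in males, 8 to 8 in females, 6 to 9 between WT sexes, where 6 were called without female WT replicate 1 and without male WT replicate 3, 8 to 11 between KO sexes and 11 to 12 for the interaction. Libraries of the same replicate number did not deviate together (12 same-number correlations of deviations from −0.0571 to 0.0779). This cannot show whether cultures were handled as pairs. With the block, 12 of these genes were called in males, 8 in females, 9 between WT sexes, 9 between KO sexes and 11 for the interaction. It ended the male calls of Cdh2 (adjusted p = 0.0918) and Cdh23 (0.0868), the female calls of Cdh24 (0.112), Parvb (0.0791), Lama4 (0.103) and Snai2 (0.0551), the WT sex difference of Itga7 (0.0678) and the KO sex differences of Cdh18 (0.0963), Cdh2 (0.0998) and Itgb5 (0.0601). Without a filter, the male calls of Itgb1 (0.0510), Cdh23 (0.0704) and Afdn (0.128) and the female call of Cdh24 (0.0661) were lost. The same run lost the WT sex differences of Cdh10 (0.0563), Itga7 (0.0764) and Itgb7 (0.0841). It also lost the KO sex differences of Cdh18 (0.0806) and Cdh2 (0.0555) and the Kank1 interaction (0.0534), while male Itga1 (0.0422) and female Itgb1 (0.0402) passed. With 1 fit over all 12 libraries, female Parvb (0.0855) and the WT difference of Itgb7 (0.199) were also lost. Female Tln2 (0.0101) and male Itga7 (0.00748) passed there. Median-of-ratios scaling ended the male Cdh2 call (0.0545). The uncalled log2 fold changes that changed sign when 1 library was left out were, in males, Dab2 −0.0504 to 0.094, Itga2b −0.052 to 0.37, Itgav −0.11 to 0.011 and Itgb4 −0.18 to 0.13, in females, Cdh23 −0.13 to 0.77, Ctnnal1 −0.0061 to 0.18, Itga1 −0.16 to 0.13, Itga2b −0.25 to 0.035, Itga9 −0.22 to 0.31 and Itgb7 −0.90 to 0.008, and for the interaction, Itgb7 −0.57 to 0.34. The depth behind the TPM values limits what can be said of genes near 1 TPM.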

Other observations

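Integrins and cadherins under the mean of 1 TPM were fitted only when the filter was left off, which tested 22401 genes, 21 of those 22 members among them. There limma called Cdh15 higher in KO in males by 0.64 on the log2(TPM + 1) scale (SE 0.10, adjusted p = 0.0265) and in females by 0.63 (SE 0.09, adjusted p = 0.0340), with an interaction of 0.02 (adjusted p = 0.981). Of the skeletal muscle markers, whose sums ran from 5.12 to 15.7 TPM, Myf5 was at 0 in all libraries, and the KO sums lay below the WT sums in males (5.12 to 5.48 against 9.22 to 11.3 TPM) and in females (7.81 to 9.69 against 12.7 to 15.7). By the means, 5 of 8 markers were lower and 1 higher in male KO, and 4 lower and 2 higher in female KO. The gap lay mainly in Acta1 in males (10.3 TPM in WT and 5.065 in KO). In females it lay mainly in Des (6.26 and 0.128), while Acta1 averaged 8.195 and 8.727. A longer gene on the same strand, Gm20388 at 0.847 TPM, overlaps Cdh15, so its low values are uncertain. Cdh5 was lower in male KO by −0.06 (adjusted p = 0.0344) at levels near 0, and Cdh17, the cadherin of intestine and liver, was higher in male than in female WT by 0.50 (adjusted p = 0.0230), at means of 0.542 ± 0.0966 and 0.0934 ± 0.0635 TPM (n = 3, limma).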
